A study of Mus musculus with 4 samples.

Results

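The 9 genes described here encode subunits of cohesin, chosen by name out of the 32285 genes in the feature tables. They are the kleisins *Rad21*, *Rec8* and *Rad21l*, the STAG proteins *Stag1*, *Stag2* and *Stag3*, and the SMC proteins *Smc1a*, *Smc1b* and *Smc3*. Each was followed in single-cell RNA libraries of the whole testis at postnatal day 15, from 2 wild-type and 2 *Meioc*-null C57BL/6N pups. Each genotype was represented once in each of 2 littermate pairs, which were also the sequencing batches, and 1 testis per pup was dissociated. The null allele was *Meioc* tm1.1Dpc. All 4 pups were in addition heterozygous for *Hspa2* tm1Dix and homozygous for a *ROSA26* tdTomato reporter whose floxed stop was intact, so the wild-type group carried these alleles too. The null allele was carried in every tissue of the animal, not in germ cells alone. The comparison asks how the exchange of mitotic for meiotic cohesin transcripts proceeded along spermatogenesis, and how it differed without MEIOC, a protein of the cytoplasm that acts with YTHDC2 and RBM46 on germ-cell transcripts.

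Cohesin is a ring that holds sister chromatids together and shapes chromosome loops. SMC3 pairs with an SMC1 protein, a kleisin closes the ring, and a STAG protein binds the kleisin. Mitotic cells use RAD21, STAG1 or STAG2, and SMC1A. Germ cells entering meiosis add REC8, RAD21L, STAG3 and SMC1B, on which the chromosome axis, synapsis and the stepwise loss of cohesion depend, whereas SMC3 serves both kinds of ring.

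By the GRCm38 annotation (GENCODE vM21) *Rec8* lies at chr14:55618037-55625395, *Rad21l* at chr2:151645404-151668533, *Stag3* at chr5:138280240-138312393 and *Smc1b* at chr15:85064689-85131964. The mitotic *Rad21* lies at chr15:51962240-51991747 and *Stag1* at chr9:100597798-100959375, while *Stag2* (chrX:42149317-42277185) and *Smc1a* (chrX:152016428-152062694) are X-linked, and *Smc3* lies at chr19:53600398-53645833. The bases before the start sites of the 4 meiotic genes are shown because these genes encode the meiotic form of the complex. The 250 bases before each RefSeq start (GRCm38.p6, for the 7 of 9 members with an entry) were searched on both strands for the E-box CACGTG, the E2F letters GGCGGGA and their core GCGGGA, and CNCCTCAG, letters associated with STRA8. The core lies within the longer E2F letters, and the core was added after the sequences had been seen. Of 32851 promoters, 6.02% held CACGTG, 9.75% GGCGGGA, 16.9% GCGGGA and 6.42% CNCCTCAG. Matches are in capitals, all runs read 5′ to 3′ on the gene's strand, and bases inside a GENCODE exon are left out, except around the *Stag3* match.
Stag3: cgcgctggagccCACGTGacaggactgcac
Smc1b: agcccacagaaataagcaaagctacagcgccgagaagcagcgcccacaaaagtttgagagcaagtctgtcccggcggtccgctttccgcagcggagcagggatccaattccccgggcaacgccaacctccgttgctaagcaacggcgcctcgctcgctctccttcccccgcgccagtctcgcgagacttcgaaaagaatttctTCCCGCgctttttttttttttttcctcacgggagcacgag
Rec8: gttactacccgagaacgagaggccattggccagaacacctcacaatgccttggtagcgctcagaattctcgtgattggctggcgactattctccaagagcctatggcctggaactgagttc
Rad21l: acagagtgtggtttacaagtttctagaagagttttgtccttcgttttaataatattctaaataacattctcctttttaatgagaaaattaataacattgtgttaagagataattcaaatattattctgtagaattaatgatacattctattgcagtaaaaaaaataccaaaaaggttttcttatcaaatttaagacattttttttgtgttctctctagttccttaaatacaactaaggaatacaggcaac
The *Stag3* run is chr5:138280327-138280356 on the plus strand, and its CACGTG starts 170 bases before the RefSeq start, inside the first exon of an alternative GENCODE transcript. The *Smc1b* run is chr15:85131965-85132207 on the minus strand, with 1 core match 47 bases before the start. *Rec8* (chr14:55617916-55618036, plus strand) and *Rad21l* (chr2:151668534-151668783, minus strand) had no match in the bases shown, and *Rec8* had 1 core match 38 bases before the start, in the exon that is not shown. *Stag1* and *Smc3* each had 1 core match, at 15 and 116 bases before the start, and *Smc1a* had none. None of the 7 windows held GGCGGGA or CNCCTCAG. A match is only a string of letters, and binding was not measured here.

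After barcodes with more than 1000 detected genes and under 10% mitochondrial UMIs were kept and putative doublets removed, 6013 to 7917 cells per library remained, with median depths of 11698.5 to 14504.5 unique molecular identifiers (UMIs, 1 per captured transcript). Wild-type germ cells fell into 10 clusters, found without use of the cohesin genes or their partners, and cells of every library were placed by their nearest wild-type cells. The paper kept apart a cluster made up of *Meioc*-null spermatocytes, mainly in G2/M phase. No such cluster could form here, so null cells of that kind took wild-type labels, and which labels they took was not tested. From fixed markers, cluster 1 was undifferentiated spermatogonia-like, clusters 2, 3, 5 and 6 differentiating spermatogonia-like, cluster 7 preleptotene spermatocyte-like, clusters 8 and 9 early spermatocyte-like and cluster 10 pachytene spermatocyte-like. Cluster 10 scored equally for early and pachytene markers, and *Ldhc* and *Piwil1* were among its leading genes. Haemoglobin genes led cluster 6, with a summed level of 7.44 to 916 CPM (counts of UMIs scaled to a total of 1000000 per library and cluster) in the wild type and 222 to 308 CPM in the *Meioc*-null. Their part in the results of cluster 6 was not tested. Cluster 4, of low depth, was left unnamed. Cluster 10 held 343 and 453 wild-type cells and 0 *Meioc*-null cells. Cluster 9 held 331 and 844 wild-type against 206 and 258 *Meioc*-null cells. *Meioc* UMIs were counted in all 4 libraries, at 629 and 679 CPM in the wild type and 668 and 644 CPM in the null of cluster 7. The null was higher in clusters 8 (806 and 789 against 600 and 553 CPM) and 9 (607 and 657 against 465 and 486 CPM) and lower in clusters 3 (59.9 and 56.6 against 83.3 and 87.9 CPM) and 5 (264 and 263 against 327 and 320 CPM), with no overlap in these 4. These 3′ counts therefore gave no check of the genotype labels, and which exons the allele lacks was not known from the labels or methods. Any 2 libraries shared 12 to 16 of their passed barcodes.

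In the wild type the kleisin transcripts changed in steps, and *Rad21* was again the most counted of them in clusters 9 and 10. *Rad21*, the mitotic kleisin, was highest in cluster 2, at 230 and 228 CPM in replicates 1 and 2. The dividing cells of cluster 5 held 157 and 163 CPM, and clusters 6, 7 and 10 held 74.6 and 78.7 CPM, 37.6 and 38.4 CPM, and 17.1 and 20.6 CPM. The replicates lay close together at each of these stages, and the cluster 2 mean was 12.1 times that of cluster 10. *Rec8*, the kleisin of sister cohesion in meiosis, went from 7.07 and 5.28 CPM in cluster 3 to a peak of 94.2 and 83.7 CPM in cluster 6, the cluster before the preleptotene-like one. Cluster 7 still had 75.0 and 64.1 CPM, cluster 8 had 4.51 and 2.21 CPM and cluster 9 had 1.48 and 1.01 CPM. Those last values rest on 7 and 11 UMIs and are no higher than in peritubular myoid cells, contractile cells of the tubule wall, which held 1.92 and 0.63 CPM. *Rad21l*, the kleisin restricted to meiotic prophase, was at 9.23 and 9.30 CPM in cluster 6. Cluster 7 had 83.1 and 91.3 CPM, cluster 8 had 102 and 97.3 CPM and cluster 9 had 16.5 and 18.4 CPM. Elsewhere in the wild type, *Rec8* was at 5.12 to 27.8 CPM over clusters 1 to 5 and 2.06 and 1.46 CPM in cluster 10, and *Rad21l* at 1.72 to 8.35 CPM and at 1.99 and 2.47 CPM. The *Rec8* and *Rad21l* maxima thus stood 2 clusters apart.

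**Figure D1:**
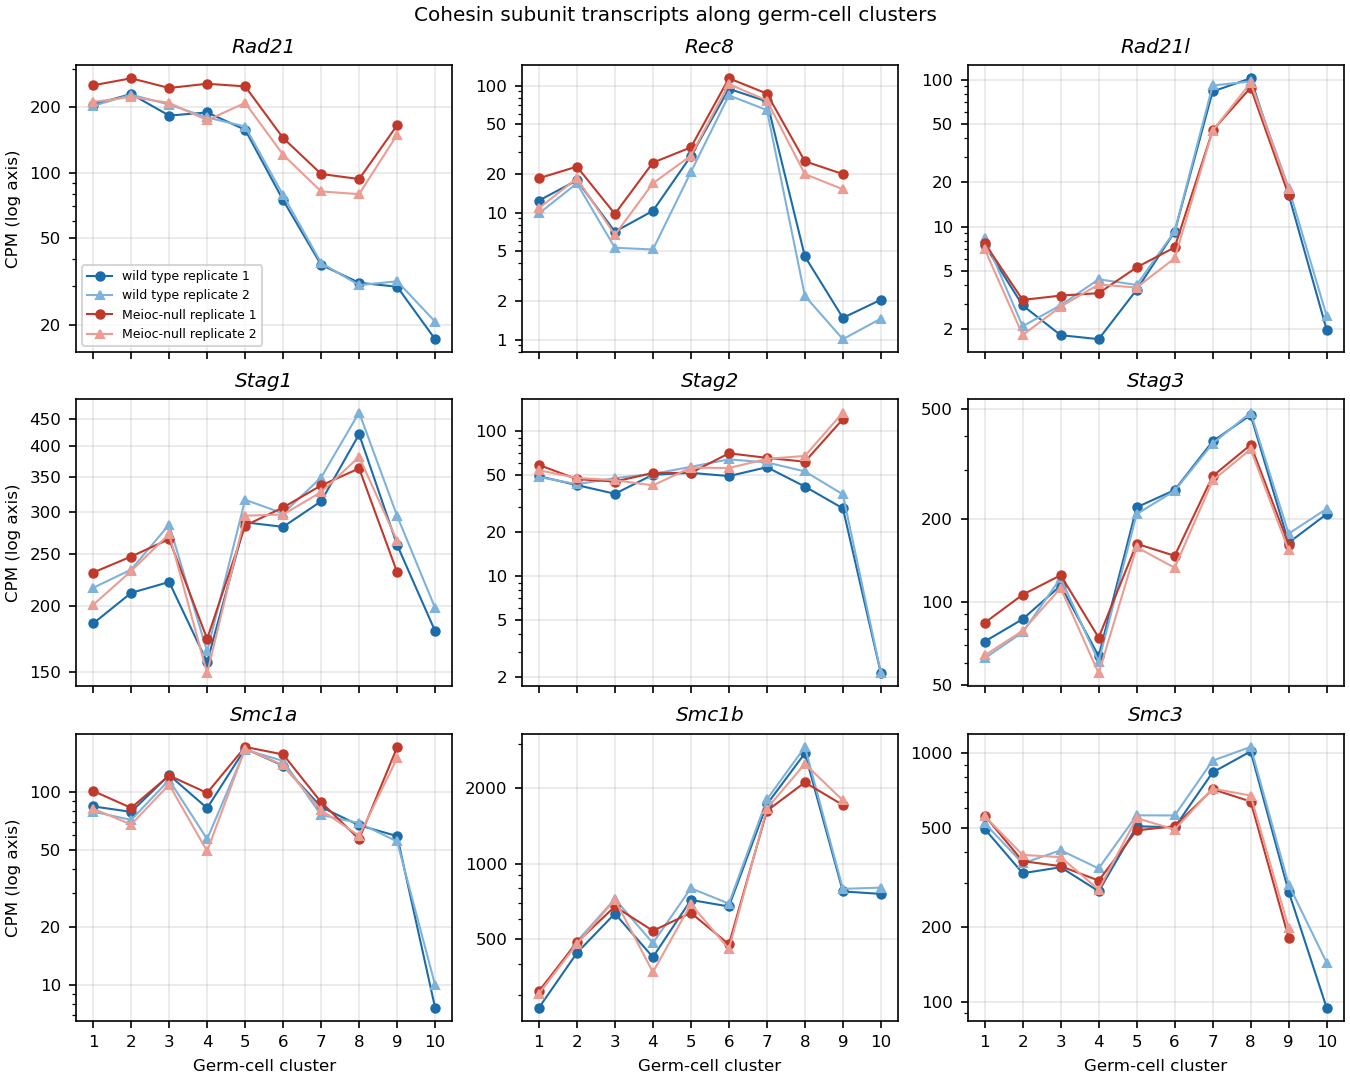
CPM (log axis) of each cohesin subunit in germ-cell clusters 1 to 10, 1 line per library, blue for wild type and red for Meioc-null; cluster 10 held no Meioc-null cells. The Rad21 lines of the genotypes are widest apart in cluster 9, at 29.9 and 31.6 against 165 and 149 CPM, and the wild-type Rec8 lines drop from 75.0 and 64.1 CPM in cluster 7 to 4.51 and 2.21 CPM in cluster 8.

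In the *Meioc*-null, *Rad21* was higher from cluster 6 onwards and *Rad21l* was lower in cluster 7. For *Rad21* the *Meioc*-null levels were 98.5 and 81.9 CPM (cluster 7), 93.4 and 79.6 CPM (cluster 8) and 165 and 149 CPM (cluster 9), where the wild type had 29.9 and 31.6 CPM. The groups did not overlap in clusters 5 to 9, nor in clusters 1 and 3, where the wild type had 205 and 203 against 252 and 211 CPM, and 183 and 205 against 245 and 209 CPM. On the log2 scale of wild type over *Meioc*-null, fitted with edgeR's quasi-likelihood test, *Rad21* was at −0.77 ± 0.12 (SE), −1.19 ± 0.12, −1.46 ± 0.14 and −2.26 ± 0.11 in clusters 6, 7, 8 and 9, with Benjamini-Hochberg adjusted p of 0.00015, 1.01e-05, 1.35e-06 and 6.5e-11. In cluster 5 it was at −0.49 ± 0.11 with an edgeR adjusted p of 0.962, and with the littermate pair as a block the same difference had an adjusted p of 1.85e-07. Here and below, p values with the block cannot be set beside those without it. With the block *Rad21* in cluster 9 was at −2.26 ± 0.10 with an edgeR adjusted p of 8.09e-102, against 6.5e-11 without it. *Rad21l* in cluster 7 was at 45.2 and 45.0 CPM in the null, below both wild-type libraries, at 1.00 ± 0.11 and an edgeR adjusted p of 4.13e-05. In cluster 8 it was at 88.3 and 95.3 CPM in the null, with a log2 difference of 0.14 ± 0.11 and an edgeR adjusted p of 0.322. With the listed genes allowed it was called there, at 0.61 and an edgeR adjusted p of 0.00238, and without doublet removal at 0.32 and 0.0236.

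*Rec8* gave no call at its peak and a wide difference after it. Where it met the detection filter, a UMI in at least 25% of the cells of either genotype, its log2 differences were between −0.38 and −0.18 and none was called. With called genes left out of the placing of cells, *Rec8* in cluster 7 was at −0.32 and called, at an edgeR adjusted p of 0.0397. Its *Meioc*-null peak was also in cluster 6, at 114 and 103 CPM. In clusters 8 and 9 it missed the filter. There it was at 25.3 and 20.1 CPM in the null of cluster 8, against 4.51 and 2.21 CPM in the wild type, and at 20.1 and 15.3 CPM in cluster 9, against 1.48 and 1.01 CPM. The *Meioc*-null values were above both wild-type libraries in each cluster. In the edgeR fit without the filter the log2 differences were −2.85 ± 0.28 in cluster 8 and −3.77 ± 0.35 in cluster 9, with adjusted p of 1.19e-21 and 1.67e-24. The p values of this fit cannot be set beside those of the filtered fits. *Rad21* in cluster 9 was at −2.23 ± 0.13 in it, with an edgeR adjusted p of 8.45e-59, against −2.26 ± 0.11 and 6.5e-11 with the filter. After each cell was thinned to 3000 UMIs, 1.72% and 0.64% of wild-type and 6.59% and 5.69% of *Meioc*-null cells of cluster 8 held a *Rec8* UMI, and without thinning 3.90% and 2.21% against 22.4% and 22.9% did. In cluster 9 the thinned shares were 0.92% and 0.24% against 6.44% and 7.00%. Median depths were 9622 to 13006 UMIs in cluster 8. In myoid cells, at median depths of 8356 to 11294 UMIs, the thinned share was 0.172% to 0.936%. The wild-type shares of cluster 9 lie within the myoid range and are read as background, those of cluster 8 lie in or near it, and those of the *Meioc*-null lie above it. This background is that of myoid cells alone. Null Sertoli cells held *Rec8* at 56.2 and 48.7 CPM, above null clusters 8 and 9. Null vascular endothelium, at 16.7 and 5.63 CPM from 7 UMIs each, overlapped null cluster 9, and null Leydig cells and macrophages held 0 to 9.12 CPM.

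Of the STAG genes, which encode the subunit that binds the kleisin, *Stag1* was detected at every stage, between 156 and 164 CPM in cluster 4 and 421 and 463 CPM in cluster 8 of the wild type. Its gene overlaps 3 same-strand gene models, and 2 on the other strand, so how UMIs were assigned among them is uncertain. *Stag2* lay between 36.8 and 63.6 CPM from cluster 1 to cluster 7, was at 29.2 and 36.5 CPM in cluster 9, and at 2.13 and 2.14 CPM in cluster 10. *Stag3*, the meiotic STAG protein, was at 71.8 and 62.4 CPM in cluster 1, against 220 and 208 CPM (cluster 5) and 475 and 485 CPM (cluster 8). Clusters 9 and 10 held 164 and 177 CPM, and 208 and 217 CPM. *Stag3* was thus already higher in the dividing cells of cluster 5 than in cluster 1, before *Rec8* peaked.

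*Stag3* was lower in the *Meioc*-null from cluster 6 to cluster 8. Cluster 6 had 147 and 133 CPM in the null against 254 and 252 CPM. Cluster 7 had 285 and 275 against 381 and 374 CPM, and cluster 8 had 370 and 357 against 475 and 485 CPM. No null library reached a wild-type one in these clusters. The edgeR log2 differences were 0.88 ± 0.12, 0.48 ± 0.10 and 0.43 ± 0.11, with adjusted p of 3.85e-05, 0.0038 and 0.00645. With the listed genes allowed, cluster 6, which then matched the same cluster as cluster 7, was at 0.58. Under the same alternative cluster 8 was at 0.31 and not called, at an edgeR adjusted p of 0.053. The call in cluster 8 was lost without wild-type replicate 2, with an edgeR adjusted p of 0.0626. With the block, edgeR also called *Stag3* in cluster 5, at 0.44 ± 0.07 and an adjusted p of 2.17e-06, and in cluster 9, at 0.19 ± 0.08 and 0.0199. Cluster 9 was called as well without doublet removal, at 0.28 and an edgeR adjusted p of 0.0235. With the listed genes allowed it was called at 0.53 and 4.15e-05.

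*Stag2* was higher in the *Meioc*-null in clusters 8 and 9. In cluster 9 the null held 121 and 134 CPM against 29.2 and 36.5 CPM, a log2 difference of −1.85 ± 0.13 and an edgeR adjusted p of 6.32e-09, and −1.01 with the listed genes allowed in the clustering. In cluster 8 it was at 61.3 and 67.2 against 41.3 and 52.5 CPM, at −0.41 ± 0.15 and an edgeR adjusted p of 0.0374. That call was lost without wild-type replicate 1, at −0.24 with an edgeR adjusted p of 0.262, and without *Meioc*-null replicate 2, at −0.30 and 0.192, by DESeq2 at 0.0841, and under 5 other alternatives. *Stag1* was not called in any cluster, with log2 differences of 0.28 ± 0.12 in cluster 8 and 0.23 ± 0.12 in cluster 9 and edgeR adjusted p of 0.0705 and 0.0978. With the block both were called, with edgeR adjusted p of 0.0048 and 0.00237. Without *Meioc*-null replicate 2 the *Stag1* differences were 0.35 in cluster 8 and 0.38 in cluster 9, and without wild-type replicate 1 that of cluster 9 was 0.35.

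Of the SMC1 pair, *Smc1b*, the meiotic partner of SMC3, was present from the start, at 267 and 303 CPM in cluster 1, and was at 1724 and 1802 CPM in cluster 7 and 2752 and 2917 CPM in cluster 8. Its wild-type level was then 776 and 794 CPM in cluster 9 and 758 and 803 CPM in cluster 10. *Smc1a*, the mitotic partner, was highest in the dividing cells of cluster 5, at 168 and 165 CPM, and lowest in cluster 10, at 7.64 and 10.0 CPM. *Smc3*, shared by every cohesin ring, was at 496 and 523 CPM in cluster 1 and was also highest in cluster 8. Clusters 6, 8 and 9 had 503 and 562 CPM, 1018 and 1061 CPM, and 277 and 296 CPM.

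When the 10 wild-type clusters were put in order of a member's mean, the replicate ranges of some neighbours in that order overlapped, so that those neighbours were not told apart. This held for 2 neighbouring pairs for *Stag3*, 3 each for *Rec8* and *Rad21*, 4 each for *Rad21l*, *Smc1a* and *Smc1b*, 5 each for *Stag2* and *Smc3*, and 7 of the pairs for *Stag1*. For *Rad21* the overlapping pairs were clusters 1 and 3, 3 and 4, and 8 and 9. For *Rec8* they were clusters 1 and 4, 4 and 3, and 10 and 9, all far below its peak.

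The *Meioc*-null libraries of cluster 9 held more of both SMC1 transcripts. Null cells were given this label by their nearest wild-type cells, and how far they match its stage was not tested. *Smc1b* was at 1712 and 1787 CPM in the null against 776 and 794 CPM, a log2 difference of −1.09 ± 0.16 with an edgeR adjusted p of 1.33e-05. *Smc1a* was at 170 and 150 CPM against 59.1 and 55.5 CPM, a log2 difference of −1.41 ± 0.10 with an edgeR adjusted p of 5.84e-09. With the listed genes allowed in the clustering these were −0.22, no longer called at an edgeR adjusted p of 0.338, for *Smc1b* and −0.40, still called at 0.000572, for *Smc1a*, which was at −0.88 without doublet removal. In cluster 6 *Smc1b* was at 477 and 457 CPM in the null against 675 and 693 CPM, and the log2 difference of 0.57 ± 0.16 had an edgeR adjusted p of 0.0573. It was called by DESeq2 (adjusted p of 0.00746), in the edgeR fit without the filter (0.0354) and without *Meioc*-null replicate 2 (0.0365). With the block the *Smc1b* difference in cluster 6 was called, with an edgeR adjusted p of 5.63e-07, as it was in cluster 5 at 0.21 ± 0.07 and 0.0424 and in cluster 8 at 0.33 ± 0.08 and 0.000128, where DESeq2 gave 0.0407. With the listed genes allowed in the clustering, clusters 6 and 7 matched the same cluster. The *Smc1b* difference in that cluster was −0.012, with an edgeR adjusted p of 0.975, so it is no check of cluster 6 by itself. *Smc1a* in cluster 8 had a log2 difference of 0.26 ± 0.13 and an edgeR adjusted p of 0.115, and 0.0405 with the block. It was called at 0.47 with called genes left out of the placing of cells, at an edgeR adjusted p of 0.00965.

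*Smc3* was lower in the *Meioc*-null late in the series. The null held 640 and 676 CPM in cluster 8 against 1018 and 1061 CPM, and 181 and 198 against 277 and 296 CPM in cluster 9. The edgeR log2 differences were 0.69 ± 0.14 and 0.67 ± 0.11, with adjusted p of 0.00116 and 5.33e-05. In cluster 7 the difference was 0.35 ± 0.15 with an edgeR adjusted p of 0.109, and 2.69e-05 with the block and 0.0258 by DESeq2. Its *Meioc*-null maximum, 717 and 720 CPM, was in cluster 7 and its wild-type maximum in cluster 8.

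**Figure D2:**
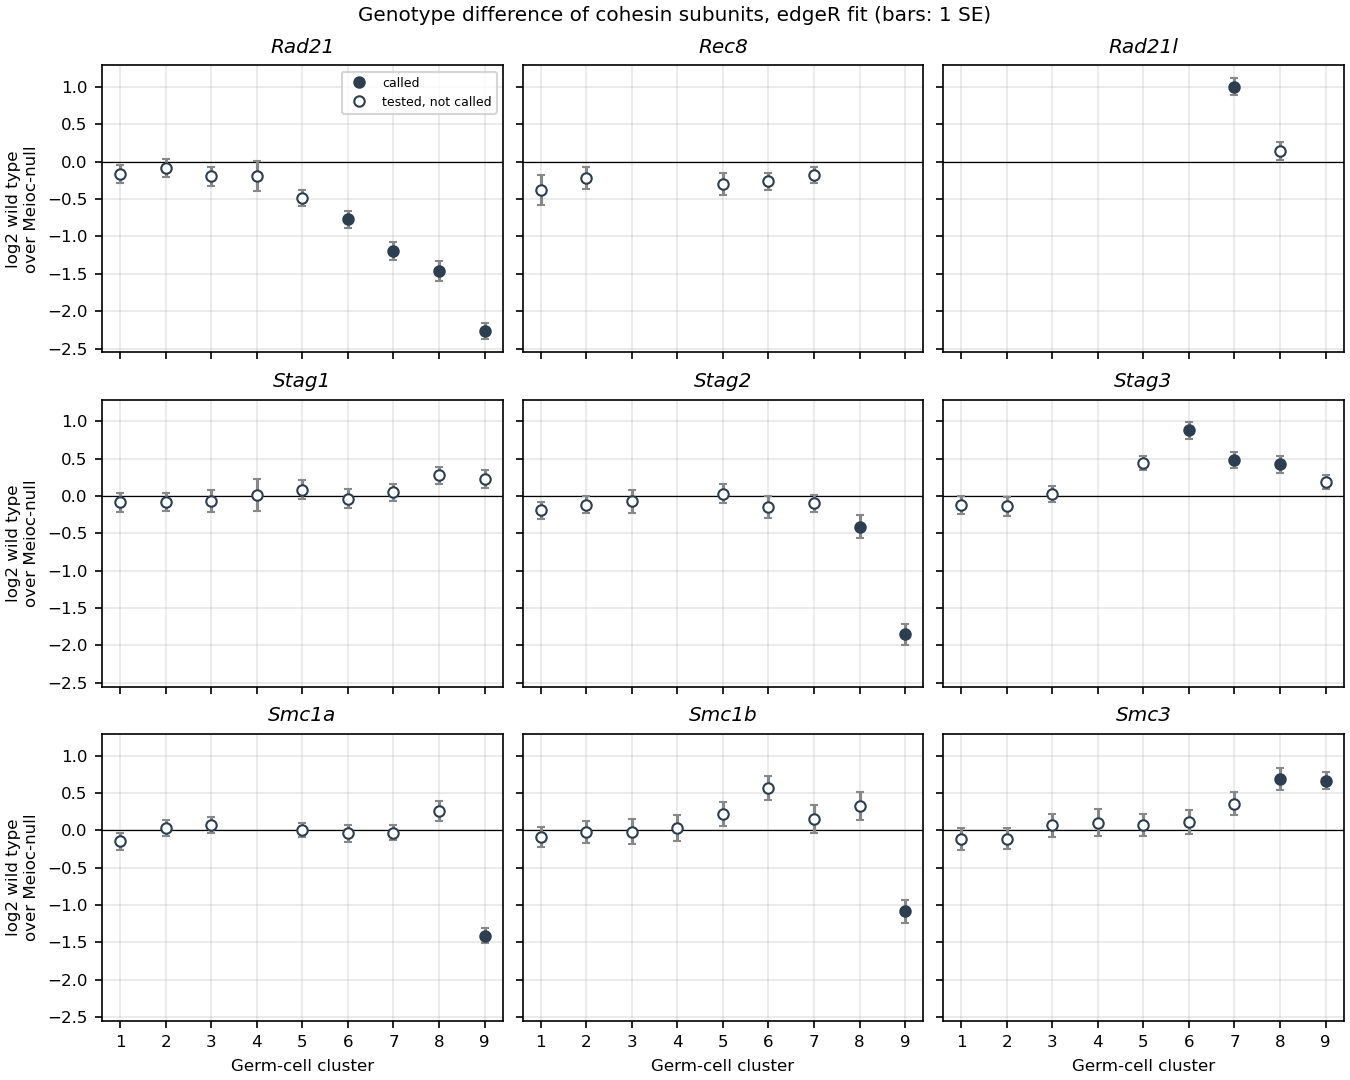
Log2 of wild type over Meioc-null for each cohesin subunit in clusters 1 to 9, edgeR fit, with bars of 1 SE; filled points passed the call and open points were tested and did not. Empty places mark clusters where the gene missed the detection filter. Rad21 moves from −0.77 in cluster 6 to −2.26 in cluster 9, opposite to Stag3 in clusters 6 to 8 and Smc3 in clusters 8 and 9.

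A gene was called where the edgeR adjusted p was under 0.05 and the log2 difference over 0.1 in either direction. Over clusters 1 to 9 the members gave 67 tests and 14 calls, 6 higher in the wild type and 8 higher in the null, where 14.7% of all 58494 tests were called. Cluster 6 had 2 calls among 8 members tested, 1 in each direction, against 1.91% of all genes tested there (0.399% higher in the wild type and 1.51% higher in the null). Cluster 7 had 3 of 9, 2 of them higher in the wild type, against 24.0% (9.38% and 14.6%). Cluster 8 had 4 of 8, 2 in each direction, against 46.9% (21.8% and 25.1%). Cluster 9 had 5 of 7, 4 of them higher in the null, against 64.3% (31.9% and 32.4%). In clusters 7 to 9 the members were thus called about as often as all genes, and no more is read from these counts. For clusters 6, 7, 8 and 9 the median log2 difference among members tested was −0.04, 0.05, 0.27 and −1.09, beside medians between −0.012 and 0.0018 over all genes tested there. Earlier, edgeR called 0 members in clusters 1, 2, 3 and 4, where it called 0.0472%, 0.0116%, 0.0254% and 0.0530% of all genes. There 0 of the 8, 8, 7 and 4 members tested reached an unadjusted p of 0.05, and the DESeq2 count was also 0. In cluster 5 edgeR called 0 of 8, against 0% of all genes. There 2 members passed 0.05 before adjustment, as did 252 of all 7107 genes tested. DESeq2 called 0 members, and the block called 3, where it called 3.91% of all genes. With the block there were 24 member calls, 15 of them higher in the wild type, where 20.4% of all tests were called. Without *Meioc*-null replicate 2 the calls higher in the wild type were 10 instead of 6. All 14 called differences had the same sign in both littermate pairs. The libraries of the genotypes did not overlap in any of the 14, so this had to be so and is no further check.

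Shares within a paralogue set do not depend on depth or scaling, although UMIs of different genes may be captured unequally, so the shares are compared between stages and genotypes only. In cluster 1 of the wild type, *Rec8* and *Rad21l* made 8.85% and 8.24% of kleisin UMIs. The share was 58.1% and 54.2% by cluster 6, 80.8% and 80.2% by cluster 7, and 77.4% and 76.6% by cluster 8. Clusters 9 and 10 stood at 37.6% and 38.1%, and at 19.1% and 16.0%. The *Meioc*-null libraries had 45.7% and 47.4% (cluster 6), 57.2% and 59.7% (cluster 7), 54.9% and 59.2% (cluster 8) and 18.1% and 18.2% (cluster 9). The null share was lower by 22.1 percentage points in cluster 7 (14.7 with the listed genes allowed in the clustering), and the libraries of the genotypes did not overlap in clusters 5 to 9, with the null lower in each. Cluster 5 had 16.70% and 13.24% in the wild type against 13.21% and 13.22% in the null. Its second littermate pair thus differed by only 0.024 percentage points, and no onset in cluster 5 is read from this share. The genotypes did not overlap in clusters 2 and 4 either, where the null was higher, at 8.80% and 8.39% against 8.32% and 7.72%, and at 9.94% and 10.8% against 5.98% and 5.04%. An exact permutation test of 2 against 2 libraries, two-sided, gave p = 0.33 in each of these clusters, the smallest it can give. The share counts all kleisins, so a lower share is not by itself a lower level of its meiotic members. In the null both *Rad21* and *Rec8* lay above both wild-type libraries in clusters 6 to 9. *Rad21l* lay below them in clusters 6 to 8, at 7.23 and 6.10 against 9.23 and 9.30 CPM in cluster 6, and overlapped in cluster 9.

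*Stag3* made 23.5% and 19.1% of wild-type STAG UMIs in cluster 1, and 39.4% and 35.8% by cluster 5. Clusters 7, 9 and 10 had 50.7% and 47.8%, 36.1% and 34.7%, and 53.4% and 52.1%. The *Meioc*-null share was 32.7% and 31% (cluster 5), 28.1% and 27.4% (cluster 6), 41.5% and 41.3% (cluster 7) and 46.6% and 44.3% (cluster 8). The genotypes did not overlap from cluster 5 to cluster 9, and the difference was widest in cluster 6, at 14.6 percentage points, with the same exact permutation p of 0.33. *Smc1b* made 76.0% and 79.3% of SMC1 UMIs already in cluster 1. Clusters 6, 7 and 10 had 83.2% and 82.7%, 95.4% and 96.0%, and 99.0% and 98.8%. Of *Meioc*-null SMC1 UMIs, 75.3% and 76.9% (cluster 6) and 94.8% and 95.4% (cluster 7) were *Smc1b*. The genotypes differed most in cluster 6, by 6.85 percentage points, again with an exact permutation p of 0.33.

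**Figure D3:**
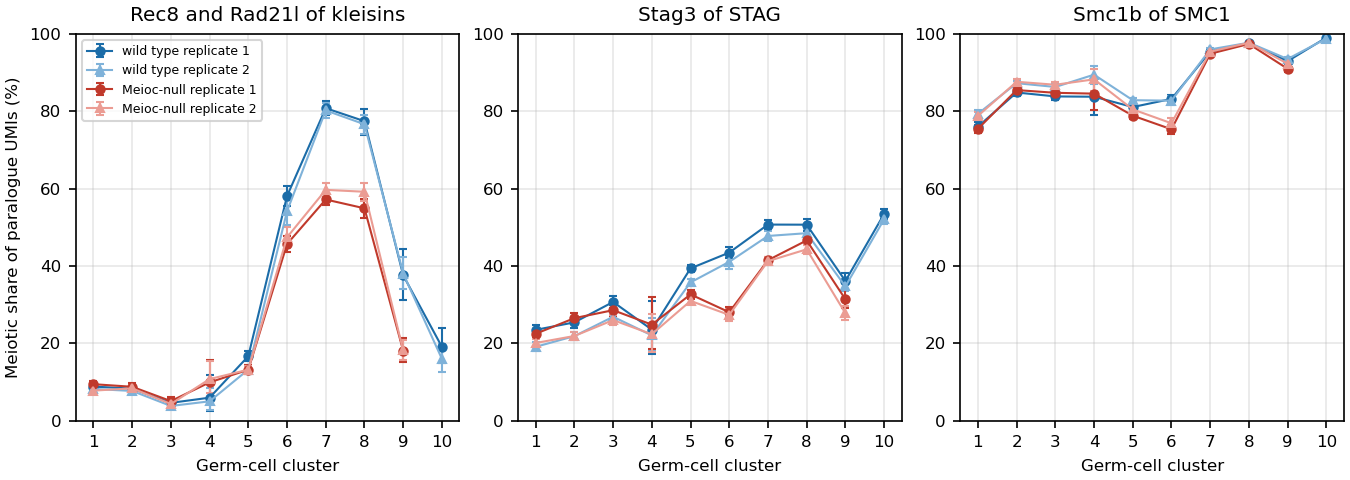
Percent of the UMIs of a paralogue set that came from its meiotic members, by germ-cell cluster and library, with exact 95% binomial intervals as bars, which cover counting error only. The kleisin share is 80.8% and 80.2% in the wild type and 57.2% and 59.7% in the Meioc-null in cluster 7, while the SMC1 share is above 75% in every cluster and library.

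Cells that held UMIs of both a mitotic and a meiotic kleisin were counted in cluster 6, where *Rec8* peaked. Without thinning, at median depths of 10443 to 11811 UMIs, *Rec8* was found in 65.0% and 56.1% of wild-type and 67.1% and 63.9% of *Meioc*-null cells, and *Rad21* in 57.3% and 51.1% against 74.4% and 67.3%. After thinning to 3000 UMIs per cell, which lowers every such share, 4.98% and 2.67% of wild-type and 10.5% and 6.83% of *Meioc*-null cells held UMIs of both *Rad21* and *Rec8*. Products of the single-gene shares were 4.52% and 4.54% in the wild type and 10.4% and 7.04% in the null, so the joint shares lay within 0.5 percentage points of the products, except in wild-type replicate 2, where 11 cells held both. In cluster 7, 11.2% and 9.31% of wild-type and 24.7% and 19.9% of null cells held a *Rad21* UMI, and 18.3% and 16.4% against 21.9% and 18.3% held one of *Rec8*. Sertoli cells, somatic neighbours of the germ cells, held a *Rec8* UMI in 8.74% and 8.33% of wild-type cells, after 363 and 136 shallower cells were left out.

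*Smc1a* and *Stag2* lie on the X chromosome, whose genes are silenced in pachytene spermatocytes (meiotic sex chromosome inactivation). Between clusters 9 and 10 of the wild type, *Smc1a* differed by −2.58 and *Stag2* by −3.43 on the log2 scale. The median was −3.60 over 184 X-linked genes and 0.0088 over 7710 autosomal genes, and autosomal *Stag1* differed by −0.56 and *Smc1b* by −0.0086. In the genotype comparison of cluster 9, the median log2 of wild type over *Meioc*-null was −0.91 over 290 X-linked and 0.011 over 6355 autosomal genes, beside −1.41 for *Smc1a* and −1.85 for *Stag2*. The autosomal members *Rad21* and *Smc1b* were at −2.26 and −1.09. The part of X-linked position in these differences was not tested.

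Whether the genotype difference itself varied between stages was tested directly. A single edgeR fit over clusters 1 to 9, with the library as a block, compared the difference in each cluster with that in cluster 1, and 24 member contrasts were called. Each member was called in at least 1 cluster, as were 73.0% of all genes. Clusters 4, 5, 6, 7, 8 and 9 had 0, 1, 3, 5, 7 and 8 of them, where 0%, 0.164%, 1.97%, 24.2%, 44.9% and 54.7% of 9757 genes were called. *Rad21* was at −0.57 ± 0.09 in cluster 6 and −2.04 ± 0.10 in cluster 9, with adjusted p of 4.12e-05 and 5.26e-20. *Stag3* was at 0.58 ± 0.11, 1.03 ± 0.12 and 0.39 ± 0.12 in clusters 5, 6 and 9, with adjusted p of 0.00764, 2.15e-07 and 0.00755. *Rec8* was at −2.42 ± 0.26 and −3.35 ± 0.33 in clusters 8 and 9, with adjusted p of 7.51e-10 and 4.77e-11. *Smc1b* changed sign, at 0.70 ± 0.10 in cluster 6 and −0.92 ± 0.10 in cluster 9, with adjusted p of 1.99e-05 and 5.39e-10. *Smc1a* was at 0.48 ± 0.12 in cluster 8 and −1.19 ± 0.12 in cluster 9, with adjusted p of 0.00116 and 4.62e-11. The first value includes the −0.15 of *Smc1a* in cluster 1, and its difference within cluster 8, 0.26, was not called. That difference was −0.080 with the listed genes allowed in the clustering. With called genes left out of the placing of cells it was 0.47 and called, at an edgeR adjusted p of 0.00965.

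Partners of cohesin were counted with the same fits in 4 lists. Of the loading and release genes (5 of 6 tested), 1 was called in each of clusters 7 to 9, against 24.0%, 46.9% and 64.3% of all genes, and their median log2 difference in cluster 7 was −0.11. *Wapl*, which opens the ring to release cohesin, was at 289 and 284 CPM in the wild type and 424 and 371 CPM in the null of cluster 7, a log2 difference of −0.42 ± 0.10 with an edgeR adjusted p of 0.00951. *Wapl* was also the gene called in cluster 8, at −0.51 ± 0.11. In cluster 9 the called gene was *Mau2*, named here after its values were seen. *Mau2* was higher in the wild type there, at 0.37 ± 0.15 and an edgeR adjusted p of 0.0433. Of the cleavage and protection genes, 4 of 5 tested were called in cluster 7, against 24.0% of all genes, and all 4 were higher in the *Meioc*-null, with a list median of −0.52. Of these 4, *Plk1* met the detection filter through the null alone, with a UMI in 3.26% of wild-type and 25.2% of null cells, so it could be tested only because it was high there. In cluster 9, 4 of 6 were called as well, against 64.3% of all genes, 3 higher in the null and 1, *Sgo2a*, a second shugoshin, higher in the wild type. Of the 3, *Plk1* again met the filter through the null alone, with a UMI in 20.3% of wild-type and 80.2% of null cells. *Sgo2a* was at −0.46 ± 0.10 in cluster 7 and 0.41 ± 0.09 in cluster 9, with edgeR adjusted p of 0.00383 and 0.00114, and is named here after its values were seen. *Plk1*, a mitotic kinase that removes cohesin from chromosome arms, was at 2.72 and 3.09 CPM in the wild type of cluster 7 and 38.8 and 34.5 CPM in the null, at −3.61 ± 0.20. *Sgo1*, the shugoshin that shields centromeric cohesin, was at 29.8 and 27.9 against 51.1 and 48.7 CPM, at −0.74 ± 0.12. *Espl1*, the separase that cuts kleisins, was at 50.8 and 45.5 against 75.6 and 67.4 CPM, at −0.52 ± 0.11. Their edgeR adjusted p were 8.64e-08, 0.000665 and 0.00365.

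Of the cohesion establishment genes, 2 of 2 tested in cluster 9 were called, where 64.3% of all genes were, and both were higher in the null, with a median of −0.84. *Esco2*, an acetyltransferase that locks cohesin during replication, was at 62.5 and 61.9 against 161 and 160 CPM, at −1.30 ± 0.10 and an edgeR adjusted p of 1.17e-08. *Esco1*, its paralogue, was at 85.1 and 86.9 against 123 and 114 CPM, at −0.38 ± 0.10 and an edgeR adjusted p of 0.0032. Of the boundary and chromosome axis genes, 4 of 6 were called in cluster 8, where 46.9% of all genes were, 3 of them higher in the null, with a median of −0.41. In cluster 6, 3 of 5 were called, where 1.91% of all genes were, 2 higher in the wild type and 1 in the null, and in cluster 9, 3 of 5, where 64.3% were, again 2 and 1. *Hormad1*, a protein of unsynapsed axes named here after its values were seen, was higher in the wild type of cluster 6, at 0.56 ± 0.12, and higher in the null of cluster 8, at −0.46 ± 0.16, with edgeR adjusted p of 0.00951 and 0.0252. *Ctcfl*, the germline paralogue of the loop-boundary protein CTCF, was at 10.4 and 9.04 against 30.7 and 25.3 CPM in cluster 8, and met the filter there through the null alone, with a UMI in 8.68% of wild-type and 26.3% of null cells. *Ctcf* was at 136 and 125 against 220 and 191 CPM. *Sycp2*, a component of the chromosome axis that loads onto cohesin, was higher in the wild type, at 1351 and 1639 against 869 and 1022 CPM. Their log2 differences were −1.51 ± 0.21, −0.63 ± 0.10 and 0.69 ± 0.17, with edgeR adjusted p of 4.95e-05, 0.00021 and 0.00413. Over clusters 1 to 9, 28 of 168 tests of partner genes were called (16.7%, beside 14.7% of all tests), 7 higher in the wild type and 21 higher in the null. Of the 28, 6 met the detection filter only through the null, where they were higher, against 0 of the 14 member calls. Without wild-type replicate 2 the calls higher in the wild type were 2. With the littermate pair as a block, 42 of the 168 tests were called, none of the 28 was lost, and 20.4% of all tests were called. The blocked fit called 3 boundary and axis genes in cluster 5, where 0 were called without the block and 3.91% of all genes were called with it. In cluster 6 the block called 4 of these genes in place of 3, and 1 cleavage and protection gene in place of 0 (8.21% of all genes). In cluster 7 it called 3 cohesion establishment, 2 loading and release and 2 boundary and axis genes in place of 1 each (43.1% of all genes). In cluster 8 it called 6 boundary and axis genes in place of 4, 2 loading and release genes in place of 1 and 1 cohesion establishment gene in place of 0 (60.6% of all genes), and in cluster 9 it called 4 boundary and axis genes in place of 3 (73.3% of all genes).

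The condensins and SMC5/6, related SMC complexes given for comparison, had 8 of 13 genes called in cluster 9, where 64.3% of all genes were, 3 higher in the wild type and 5 higher in the null, with a median of −0.14. *Smc2*, a condensin core subunit, was at 153 and 158 against 554 and 575 CPM, a log2 difference of −1.79 ± 0.12. *Ncapg2*, of condensin II, was at 71.8 and 63.5 against 282 and 256 CPM, at −1.93 ± 0.10. *Nsmce4a*, of SMC5/6, was at 34.1 and 41.1 against 75.8 and 65.2 CPM, at −0.80 ± 0.14. Their edgeR adjusted p were 1.94e-09, 1.01e-10 and 6.93e-05. With the block 8, 9 and 10 of these genes were called in clusters 7, 8 and 9, where 43.1%, 60.6% and 73.3% of all genes were, in place of 5, 5 and 8 (24.0%, 46.9% and 64.3%). Of the 18 calls without the block, 2 met the detection filter only through the null, where they were higher. Both were *Ncaph*, with a UMI in 13.9% of wild-type and 26.4% of null cells in cluster 7 and 13.4% and 25.1% in cluster 8.

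**Figure D4:**
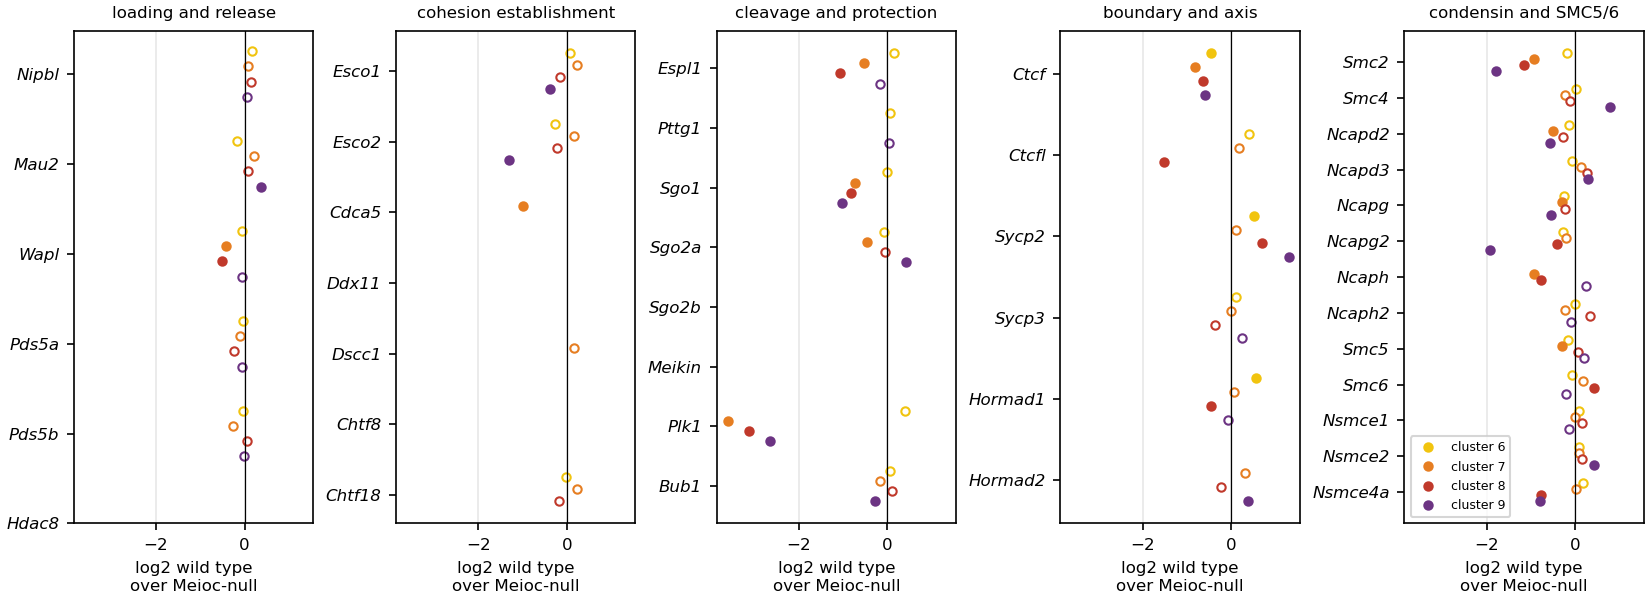
Log2 of wild type over Meioc-null in clusters 6 to 9 for the 4 lists of cohesin partners and for condensin and SMC5/6 genes; filled points were called by edgeR and open points were not. Genes with no point missed the detection filter in these clusters. Plk1 lies furthest to the left, at −3.61 in cluster 7.

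Genes whose levels followed a member most closely were found from the 20 wild-type cluster-by-library values, over 10240 genes, by Pearson's r of log2(CPM + 1). These points share libraries and the correlation is a description. *Rec8* was followed most closely by *Ormdl1* (0.95), *Med12l* (0.94) and *Aig1* (0.91). The others were *Fbxl5* for *Stag3* (0.98), *Oip5* for *Smc1b* (0.97), *Stxbp5l* for *Rad21l* (0.96) and *Mettl9* for *Rad21* (0.99). Among the members themselves, *Stag3* and *Smc1b* followed each other at 0.91, whereas *Rec8* and *Smc1b* stood at −0.029. The mitotic member *Stag1* stood at 0.82 with both *Stag3* and *Smc1b*, at 0.77 with *Rad21l* and at −0.38 with *Rad21*.

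Of the somatic cells in the same libraries, Sertoli cells held *Rec8* at 39.2 and 35.8 CPM in the wild type and 56.2 and 48.7 CPM in the null, more than wild-type clusters 8 to 10. Their *Smc1b* was at 68.8 to 117 CPM, their *Stag3* at 21.6 to 30.5 CPM and their *Rad21l* at 0.75 to 3.91 CPM over the 4 libraries. Per 100 *Smc1b* UMIs, Sertoli cells held 32.6 to 56.9 *Rec8* UMIs. Wild-type clusters 6, 7 and 8 held 12.1 to 13.9, 3.56 to 4.35 and 0.0757 to 0.164, and null cluster 6 held 22.5 to 23.9. The source of the *Rec8* UMIs of Sertoli cells was not tested. In peritubular myoid cells *Rec8* was at 0.63 to 3.1 CPM in the 4 libraries, *Rad21l* at 0 to 0.63 CPM and *Stag3* at 5.56 to 11 CPM. None of 6 members tested in Sertoli cells and of 5 in myoid cells was called by edgeR or by DESeq2, and 0 reached an unadjusted p of 0.05, where 0.164% and 0.0572% of all genes were called. *Rec8* in Sertoli cells and *Smc1b* in myoid cells missed the filter, and without it their log2 differences were −0.41 and 0.41, with unadjusted p of 0.0232 and 0.0146 in the edgeR fit and adjusted p of 0.77 and 0.997. Summed Sertoli markers were at 21.9 to 113 CPM in the named germ-cell clusters and at 6636 to 7300 CPM in Sertoli cells.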

How the data were processed

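The deposited files hold counts: UMIs per gene and barcode, which the authors made with Cell Ranger 4.0.0 against mm10 (GRCm38), per the labels and the methods, from 10x Chromium 3′ v3.1 libraries. Seurat is also named in the submitters' processing notes. The gene tables were matched to GENCODE vM21 here (32158 of 32285 identifiers), not the authors' annotation version.

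Barcodes with over 1000 genes and under 10% mitochondrial UMIs were kept. Scrublet in scanpy 1.11.5 scored doublets, and the top-scoring share expected at 0.8% per 1000 barcodes was removed, 321 to 577 per library. Its own threshold marked 1.77% to 4.54%. Wild-type germ cells were clustered (2000 variable genes without the listed genes, 30 components, Leiden), and every cell took the label of its 30 nearest wild-type cells. A cluster needed 50 cells in every library to be tested. UMIs were summed per library and cluster (CPM: UMIs scaled to a sum of 1000000) and tested with edgeR 4.0.16 (quasi-likelihood, TMM, genotype only), and with DESeq2 1.42.0 as an alternative, after each fit was tested on simulated data. Differences are wild type over *Meioc*-null. Genes needed a UMI in 25% of the cells of either genotype. Groups came from the sample labels, and, per the labels, libraries with the same number are a littermate pair prepared in the same batch. Their deviations from the group means correlated at 0.377 to 0.659 across genes in clusters 1 to 9. Where the pair as a block changed a call, its values are printed for members and its counts for the lists. The p values of the blocked fit cannot be set beside those of the fit without it. Intervals are exact binomial and cover counting error only. Total UMIs per library were 158291903 to 190455307.

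Members and partner lists were chosen with earlier results of these data known. Members were followed in every cluster and are given as values or ranges where results turn on them. Of each list, up to 3 called genes with the largest absolute log2 difference were named, in the cluster with most calls (the lower number on a tie), and for 5 members the genes of closest pattern.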

Additional observations from a re-analysis of the deposited data

Results flagged for a closer look

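In an edgeR fit over clusters 1 to 9 with the library as a block, the genotype difference of every member changed in at least 1 cluster relative to cluster 1, as did that of 73.0% of all 9757 genes. The widest change per member, as the log2 difference in the later cluster minus that in cluster 1, was −2.04 for *Rad21*, −3.35 for *Rec8*, −1.19 for *Smc1a*, −0.92 for *Smc1b* and −1.60 for *Stag2*, all in cluster 9, and 0.92 for *Rad21l* in cluster 7, 0.88 for *Smc3* and 0.43 for *Stag1* in cluster 8, and 1.03 for *Stag3* in cluster 6. *Rec8* and *Rad21l* were below the detection filter in some of these clusters.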

How the results depend on the processing

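Of the 14 called member differences, 8 kept their direction and their call under every alternative fitted. The call of *Stag2* in cluster 8 was lost under 8 alternatives, that of *Stag3* in cluster 8 under 3, that of *Smc1b* in cluster 9 under 2, and those of *Smc3* in clusters 8 and 9 and *Stag3* in cluster 7 with a Bonferroni adjustment over genes and clusters. The 14 member calls became 24 with the littermate pair as a replicate block, 8 by Bonferroni, 9 without cluster 9 (chosen after seeing the data) and 13 to 17 when each library was left out. Calls higher in the wild type went from 6 to 15 with the block, 2 by Bonferroni and 5 to 10 without 1 library (10 without *Meioc*-null replicate 2), and those higher in the null from 8 to 4 without cluster 9 and 7 to 8 without 1 library. Partner calls went from 28 to 6 by Bonferroni, 18 without cluster 9 and 21 to 30 without 1 library. Those higher in the wild type went from 7 to 4 by DESeq2, 15 with the block, 1 by Bonferroni, 4 with the listed genes allowed in the clustering, 3 without cluster 9 and 2 to 9 without 1 library, and those higher in the null from 21 to 5 by Bonferroni. In cluster 7 the meiotic share (wild type minus null, percentage points) went from 22.1 to 18.6 (mitochondrial limit of 5%, which left 31 and 37 wild-type cells, under the minimum of 50) and 14.7 (listed genes allowed) for kleisins, from 7.86 to 16.6 and 10.2 for STAG, and from 0.567 to 1.31 and −0.779 for SMC1, and to 1.39 for SMC1 with called genes left out of the placing of cells. As means over cells, the wild-type peaks were 222 CPM for *Rad21* and 470 CPM for *Stag3*. Without thinning, the shares of cluster 7 cells with a UMI were 33.0% and 61.0% for *Rad21* and 48.2% and 55.3% for *Rec8* in wild type and null.

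Reversals of sign occurred only among differences not called, in 65 fits of 32 results, and none was called there either. With cells thinned to 3000 UMIs the log2 differences were 0.0086 (*Rad21*, cluster 2), 0.0145 (*Smc1b*, 3), −0.013 (*Smc3*, 3), −0.13 and −0.0076 (*Stag1*, 4 and 7), 0.049, −0.17 and 0.098 (*Stag2*, 3, 5 and 7) and −0.078 (*Stag3*, 3). For *Smc1a* in cluster 5 they were 0.0095 with DESeq2 or its size factors, 0.0225 without the detection filter, 0.0076 without doublet removal, 0.00093 with the listed genes allowed and 0.0105 with called genes left out. With the listed genes allowed, where clusters 6 and 7 both matched the same cluster, they were also 0.11 (*Smc1a*, 6 and 7), −0.080 (*Smc1a*, 8), −0.012 (*Smc1b*, 6 and 7) and −0.019 (*Stag1*, 7). In cluster 4, with 15 nearest cells they were −0.015 (*Smc1b*) and −0.034 (*Stag1*), without doublet removal −0.16 (*Smc1b*), −0.088 (*Smc3*) and −0.16 (*Stag1*), and with called genes left out −0.032 (*Smc1b*). *Stag2* in cluster 5 was at −0.0013 without doublet removal.

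Leaving out each library in turn gave ranges on both sides of 0 for these uncalled differences. For *Rad21* they were −0.17 to 0.012 (cluster 2) and −0.44 to 0.064 (cluster 4). For *Smc1a* they were −0.063 to 0.12 (cluster 2), −0.042 to 0.041 (cluster 5) and −0.12 to 0.051 (cluster 6). For *Smc1b* they were −0.23 to 0.049 (cluster 1), −0.15 to 0.10 (cluster 2), −0.16 to 0.12 (cluster 3) and −0.21 to 0.29 (cluster 4). For *Smc3* they were −0.22 to 0.0026 (cluster 2), −0.094 to 0.22 (cluster 3), −0.016 to 0.20 (cluster 4), −0.058 to 0.21 (cluster 5) and −0.0082 to 0.24 (cluster 6). For *Stag1* they were −0.25 to 0.074 (cluster 1), −0.20 to 0.041 (cluster 2), −0.30 to 0.14 (cluster 3), −0.071 to 0.093 (cluster 4), −0.038 to 0.20 (cluster 5), −0.12 to 0.054 (cluster 6) and −0.069 to 0.17 (cluster 7). For *Stag2* they were −0.31 to 0.13 (cluster 3), −0.090 to 0.15 (cluster 5), −0.38 to 0.092 (cluster 6) and −0.19 to 0.0025 (cluster 7). For *Stag3* they were −0.25 to 0.024 (cluster 1), −0.30 to 0.033 (cluster 2) and −0.061 to 0.12 (cluster 3).
Other alternatives gave no call count: the mitochondrial limit of 5% left 50 cells in every library only for clusters 4 and 5 among the germ-cell clusters tested. With the block, no call of a member or listed gene was lost, and the report gives the members and the counts of listed genes that gained one. Cluster identity rests on placing null cells by wild-type cells, and how far null cells match the stage of their cluster was not tested.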
